A study of Mus musculus with 12 samples.

Results

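Oxidative phosphorylation genes were followed in testis RNA of Wobbler mice with a modifier, Wobbler mice and wildtype mice. The genes were chosen by symbol: those starting with Nduf, Sdha to Sdhd, Uqcr, Cox with a digit or Atp5, with Cyc1, Cycs and Cyct. The array annotation held 87 such genes among 9930 named genes, on 118 probes. They comprised 31 genes of complex I, 4 of complex II, 8 of complex III, 16 of complex IV, 15 of complex V and 13 assembly factors. No probe was named Cycs or Cyct, so the mobile carrier cytochrome c was not analysed here. The symbols Cox10, Cox14, Cox16, Cox18, Cox19, Cox20, Ndufaf and Sdhaf name proteins that build the complexes and are not subunits, so they were kept apart as assembly factors.

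Every RNA sample was a pool of 3 males on a Castaneus background, and the 3 genotypes were labelled Wobbler modifier, Wobbler and wildtype. The study's design text writes them as wr/mod, wr/wr and wt; the labels used here state neither an age nor what the modifier is. Wobbler is a recessive mutation of Vps54, a subunit of a Golgi tethering complex. Each pair of genotypes was hybridised together on 4 two-colour cDNA arrays, with the dyes exchanged on 2 of them, 12 arrays in all. Nothing in the labels says that the arrays of a pair came from separate pools, so the p-values reflect array-to-array spread only, and part of it can be technical.

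Oxidative phosphorylation transfers electrons from NADH (complex I) and succinate (complex II) through complex III and cytochrome c to oxygen at complex IV. The protons pumped on the way drive ATP synthesis at complex V, the F1Fo ATP synthase. Most subunits are encoded in the nucleus, and several subunits of complex IV exist as ubiquitous, muscle-type and testis-type forms. The genes followed here are all nuclear, so the medians of the complexes leave out the subunits encoded in mitochondrial DNA. Spermatids keep their mitochondria in a sheath around the sperm midpiece, and spermatocytes and round spermatids rely on respiration.

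A log2 ratio below 0 means less signal in the genotype named first. Which sign means higher rests on the dye order (Cy5 over Cy3) and is only likely. With replicates 3 and 4 of each pair multiplied by -1, the direct ratio of modifier over Wobbler correlated at r = 0.126 with the ratio obtained through wildtype, across 14729 features. With no array turned it correlated at r = 0.00619. These are descriptions over features that share arrays. After turning, arrays of opposite dye order correlated at 0.0619 to 0.0914 in modifier over wildtype, at 0.00993 to 0.0591 in modifier over Wobbler and at -0.0421 to 0.0381 in Wobbler over wildtype. All these correlations would be the same with the sign of every array changed. They bear on the dye swap and not on which genotype is higher.

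Usable spots numbered 18325 to 19584 per array. The SD of the log2 ratios was 0.617 to 0.740 on the arrays of modifier over wildtype, 0.741 to 0.869 on those of modifier over Wobbler and 0.731 to 1.61 on those of Wobbler over wildtype, where replicate 2 was the widest. Of the 87 genes, 85 were measured on 3 or 4 arrays in each pair of genotypes and were tested; Cox19 and Ndufaf3 were not. In these bulk samples, fewer cells of a type and less RNA per cell cannot be told apart.

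In testis with the modifier, most genes of the respiratory chain had slightly lower signal than in wildtype testis. The fitted log2 ratio was below 0 for 62 of 85 genes, or 72.9%, against 47.5% of all features. The median over the 85 genes was -0.20, against 0.01 over all features. Only Atp5c1, the gamma subunit that forms the central stalk of the ATP synthase, passed the test, and it was lower in modifier testis. That is 1 of 85 genes, or 1.18%, where 0.733% of all features passed (limma, adjusted p under 0.05), a share near the background in this fit. The share depended on the fit. With arrays scaled to equal spread 9 genes passed, or 10.6%, against 3.34% of all features. With array weights 14 passed, or 16.5%, against 4.81%. All of these were lower in modifier testis. Without the dye term 0 genes passed, against 0.312% of all features. The count was also 0 with this pair fitted alone (0.0272% of all features) and with the replicate number as a block (0.394%). Leaving out any array of this pair gave 0 as well, against 0.136% to 0.333%. By direction, 1 gene was lower in the reported fit, against 0.699% of all features, and 0 were higher, against 0.0339%.

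Most genes that did not pass also had ratios below 0. At an unadjusted p under 0.05 there were 21 genes lower, or 24.7%, against 5.22% of all features, and 0 genes higher, against 2.11% of all features. On every array that measured them 30 genes, or 35.3%, were below 0 and 3 were above 0, against 10.4% and 8.81% of all features. The genes are not independent of each other, so these shares are descriptions.

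The complexes differed in how far their medians lay from 0 in modifier over wildtype. Complex IV had a median log2 ratio of -0.30 over 16 genes and complex V one of -0.27 over 15 genes. Complex III stood at -0.18 over 8 genes, complex II at -0.17 over 4 genes and complex I at -0.14 over 31 genes. This order was not stable: with each probe counted on its own complex IV stood at -0.18, close to complexes II and III, and complex V at -0.29. With 2 genotype coefficients fitted to all 12 arrays complexes I, II and III stood at -0.086, -0.05 and -0.083, while IV and V stood at -0.24 and -0.19. The 11 tested assembly factors had a median of -0.03, close to the 0.01 of all features. Of the genes of each complex, 13 of 15 were below 0 in complex V and 13 of 16 in complex IV, against 21 of 31 in complex I, 6 of 8 in complex III, 3 of 4 in complex II and 6 of 11 assembly factors.

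**Figure D1:**
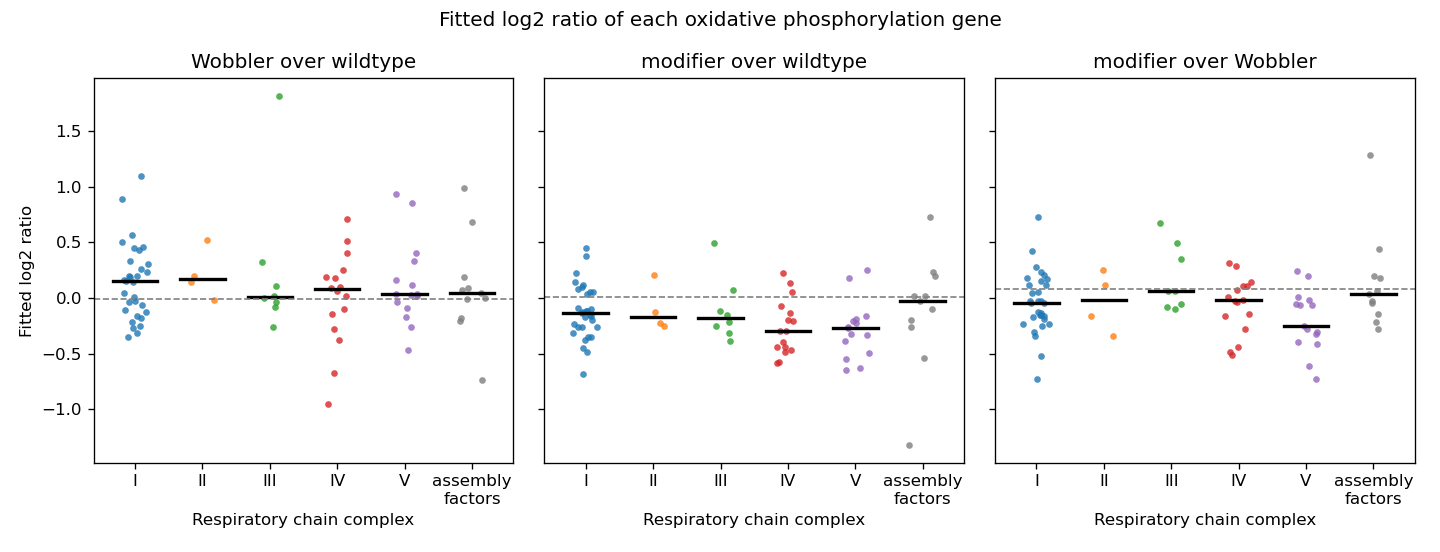
Fitted log2 ratio (vertical axis) of each tested gene, grouped by complex (horizontal axis), in the 3 comparisons; black bars are medians and the dashed line is the median of all 14729 features. In modifier over wildtype the medians of complexes IV and V lie at -0.30 and -0.27, and in modifier over Wobbler that of complex V lies at -0.25.

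Set against the median of all features on the same array, complex V lay at -0.318, -0.265, -0.255 and -0.182 on replicates 1 to 4 of modifier over wildtype. Complex IV lay at -0.254, -0.294, -0.292 and -0.191 on the same arrays. Both complexes were thus below all features on every array, with means of -0.255 ± 0.0560 (SD, n = 4) and -0.258 ± 0.0480 (SD, n = 4). Complex I was also below on all 4 arrays, between -0.170 and -0.067, and complex II between -0.289 and -0.030. Complex III had both signs, from -0.330 to 0.0605, and the assembly factors ranged from -0.156 to 0.040. The ranges of complexes IV and V did not overlap that of complex I, and no test was made between complexes.

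**Figure D2:**
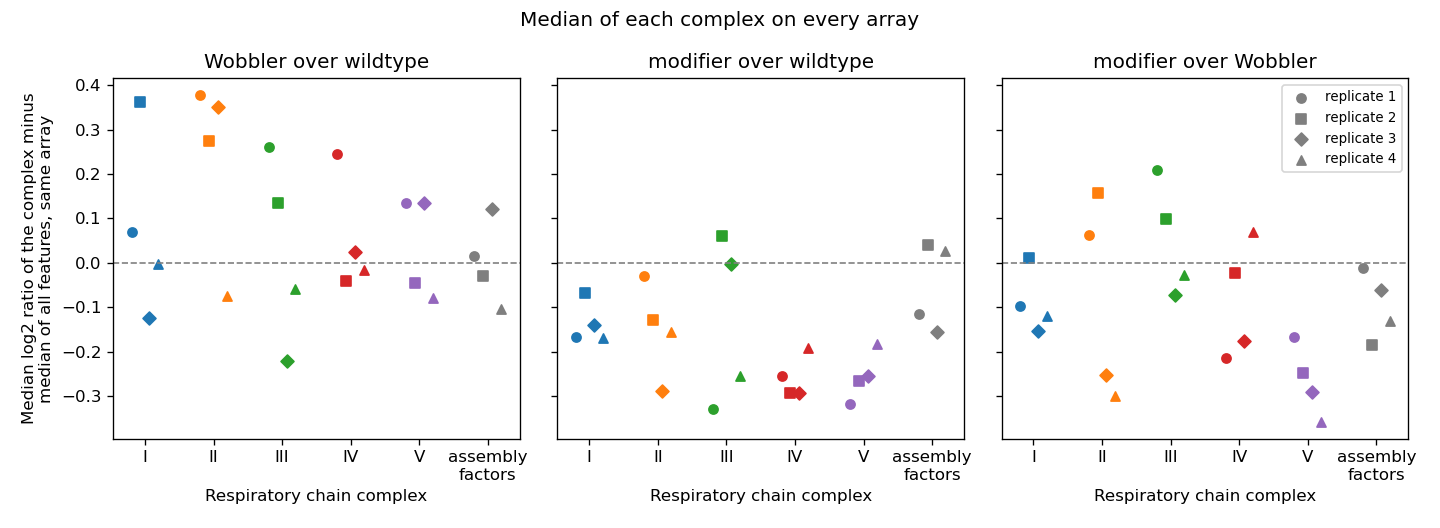
Median log2 ratio of each complex minus the median of all features on the same array (vertical axis), by complex (horizontal axis); each symbol is 1 array. In modifier over wildtype the symbols of complexes IV and V lie between -0.318 and -0.182 on all 4 arrays.

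Atp5c1 had log2 ratios of -0.516, -0.524, -0.543 and -1.01 on replicates 1 to 4 of modifier over wildtype. Replicates 1 to 3 lay close together and replicate 4 lay well below them. The fitted ratio was -0.65 ± 0.12 (SE, n = 4), a 1.57-fold lower signal in modifier testis (limma, adjusted p = 0.0481). The call was not stable: leaving out any of the 4 arrays of this pair gave adjusted p of 0.104 to 0.316, with ratios between -0.75 and -0.57. Left out in turn, the arrays of the other pairs also ended it, apart from replicate 2 of Wobbler over wildtype, without which the adjusted p was 0.0362. With the replicate number as a block the adjusted p was 0.144.

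The promoter of Atp5c1 is shown because it is the gene that passed, taken from RefSeq on GRCm38.p6 at 1 of 2 annotated starts (chr2:10080383-10080682, minus strand), from 250 bases before to 50 bases after the start. It held neither of the motifs searched, the NRF1 core CGCATGCG and the ETS motif CCGGAAG on either strand, and so has no capitals.
Atp5c1: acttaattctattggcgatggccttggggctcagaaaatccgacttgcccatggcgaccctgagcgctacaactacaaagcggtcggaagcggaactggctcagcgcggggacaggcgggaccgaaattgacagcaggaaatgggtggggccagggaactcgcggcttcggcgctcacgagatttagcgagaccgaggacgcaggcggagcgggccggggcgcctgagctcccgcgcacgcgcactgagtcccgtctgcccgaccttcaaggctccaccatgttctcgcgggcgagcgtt

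Among the other ATP synthase genes, Atp5mpl, a small membrane-domain subunit, had log2 ratios of -0.364, -0.246, -0.886 and -0.496 in modifier over wildtype. All 4 arrays were below 0, and the fitted ratio was -0.50 ± 0.11 (SE, n = 4), which did not pass (limma, adjusted p = 0.111). Its 3 probes gave means between -0.58 and -0.35. Atp5o, the stalk protein that joins F1 to the membrane part, had a fitted ratio of -0.55 and Atp5b, the catalytic beta subunit, one of -0.27, both below 0 on all 4 arrays. For Atp5o this held only for the average of its 2 probes. Their means were -0.78 and -0.32, and each probe had an array above 0. Atp5a1, the alpha subunit, had the highest fitted ratio of the complex at 0.25, with values of -0.614, 0.640, 0.913 and 0.0453 that did not hold 1 sign. Its 3 probes gave means between 0.047 and 0.55. In all, 10 of 15 complex V genes were below 0 on every array, 7 of 16 in complex IV and 7 of 31 in complex I.

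In complex IV, Cox7c, a small subunit, had log2 ratios of -0.222, -0.212, -0.754 and -0.582 in modifier over wildtype. All 4 arrays were below 0, with replicates 3 and 4, where modifier RNA was in Cy3, lower than replicates 1 and 2, and the fitted ratio of -0.44 ± 0.11 (SE, n = 4) did not pass (limma, adjusted p = 0.144). The same order of arrays was seen in Cox7a2, with -0.108, -0.113, -0.899 and -0.656, and in the medians of all features, which were 0.163, 0.131, -0.188 and -0.098. The dye term of the fit takes up such a shift. Cox5b, with values between -0.51 and -0.286, had a fitted ratio of -0.39, and Cox6c one of -0.49.

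In complex I, Ndufs3, a core subunit of the matrix arm, had the lowest fitted ratio, -0.69 ± 0.21 (SE, n = 4). Its array values were -0.052, -0.356, -1.77 and -0.567, all below 0 and widely spread (limma, adjusted p = 0.278). Ndufb8, an accessory subunit of the membrane arm, lay between -0.760 and -0.151 with a fitted ratio of -0.45, but its 2 probes gave means of -1.01 and 0.12. Ndufc1, another accessory subunit, had the highest ratio of the complex, 0.45, with 0.690, 0.638, 0.543 and -0.066.

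Sdhb, the iron-sulfur subunit of succinate dehydrogenase, was at -0.25 ± 0.16 (SE, n = 4) in modifier over wildtype. Its flavoprotein partner Sdha was at 0.21 ± 0.19 (SE, n = 4), with all 4 arrays above 0, and neither passed. In complex III, Uqcr10, a small subunit, was the lowest at -0.39 and Uqcrfs1, the Rieske iron-sulfur protein, the highest at 0.50, with an SE of 0.66. The SE of single genes reached from 0.0998 to 0.789, so differences of the size of these medians were not detectable in the noisier genes.

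Among the assembly factors, Ndufaf5, which modifies a complex I subunit during assembly, had log2 ratios of -0.477, -0.417, -0.710 and -0.567 in modifier over wildtype. The 4 arrays lay close together, and the fitted ratio of -0.54 ± 0.13 (SE, n = 4) did not pass (limma, adjusted p = 0.123). Ndufaf6, another complex I assembly factor, had the lowest ratio of the group, -1.32 ± 0.64 (SE, n = 3), and Cox20, a chaperone of complex IV assembly, the highest, 0.73 ± 0.79 (SE, n = 3). Both lacked a value on replicate 2 and varied by more than 2 log2 units between arrays.

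**Figure D3:**
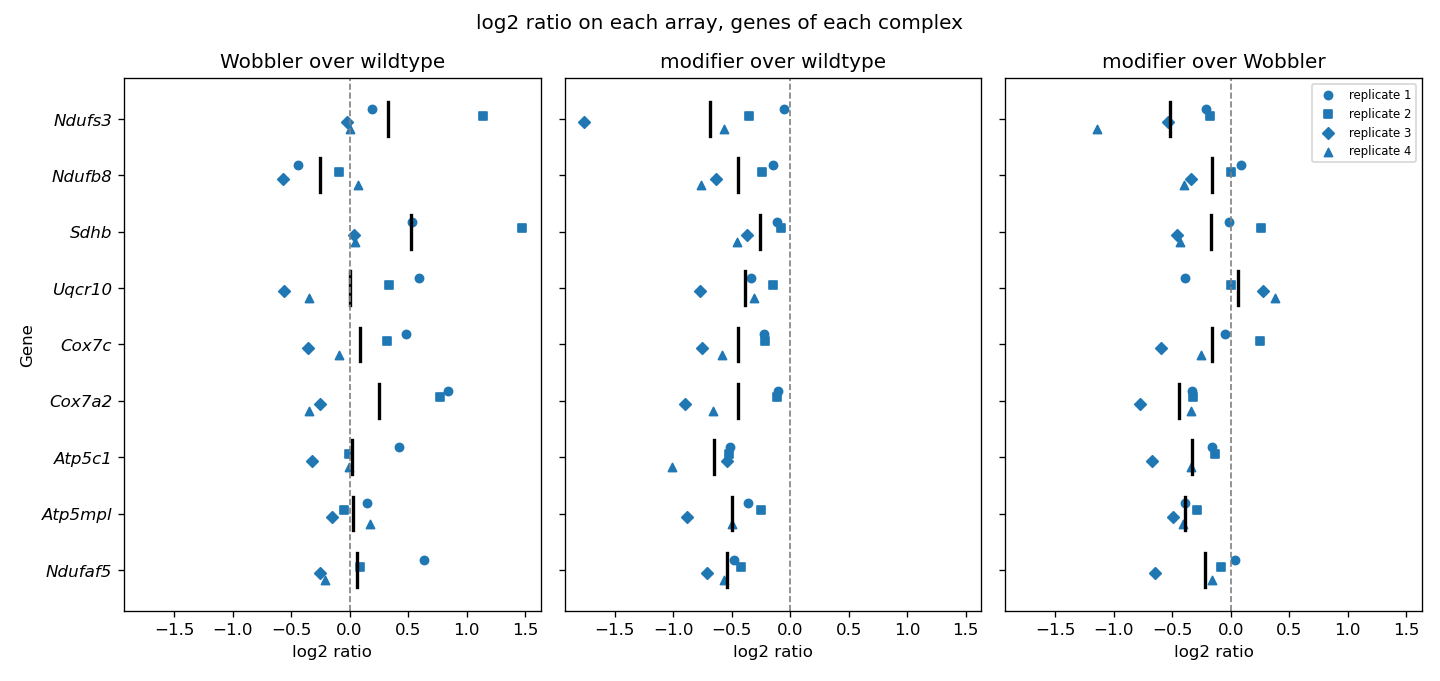
log2 ratio (horizontal axis) of 9 genes (rows) on each array; symbols are arrays and black bars fitted ratios. In modifier over wildtype all symbols of these genes lie below 0, and in Wobbler over wildtype those of Atp5c1 lie on both sides of 0. The 9 genes are a selection from the 30 of 85 that were below 0 on every array of modifier over wildtype. The genes with the highest ratio of each complex are not drawn here.

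Markers of late spermatids were lower in the same comparison and by more. All 15 tested late spermatid markers had ratios below 0 in modifier over wildtype, between -1.60 and -0.32, 7 of them passing, with a median of -0.97. On the 4 arrays their median lay between -1.06 and -0.835 relative to all features. The label of this list is approximate. It also holds Ldhc (-0.52), Pgk2 (-1.02, passing) and Hk1 (-0.63), which are not restricted to late spermatids. The 6 tested Leydig markers were also all below 0, with a median of -0.80 and 2 passing (Cyp17a1 at -2.03 and Ephx1 at -0.77). The medians were -0.08 for 5 round spermatid and acrosome markers, 0.01 for 6 Sertoli markers, 0.05 for 5 peritubular and vessel markers and -0.13 for 4 macrophage markers. They were -0.07 for 3 meiotic and 0.24 for 3 spermatogonial markers, with Syce2 (-0.94) and Tyrobp (-0.68) passing. The part of these shifts in the oxidative phosphorylation ratios was not tested.

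The medians of 3 other mitochondrial lists lay closer to that of all features in modifier over wildtype. Of the tricarboxylic acid cycle and pyruvate dehydrogenase list, 14 of 18 genes were tested, 0 passed, and the median was -0.05, with ratios between -0.30 and 0.05. Of the assembly factors and carriers outside the symbol rule, 18 of 27 were tested, the median was -0.01 and 0 passed. Its carriers and channels, singled out after their values were seen, did not lie at that median: the phosphate carrier Slc25a3 was at -0.47, the ADP/ATP carrier Slc25a5 at -0.20 and the outer membrane channels Vdac1 and Vdac2 at -0.28 and -0.21. For 8 of 12 tested regulators of mitochondrial transcription it was -0.02 and 0 passed. The difference between these lists and the respiratory chain was not tested.

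The next comparison set modifier testis against Wobbler testis. Here 0 of 85 genes passed (limma), where 0.414% of all features did (0.299% lower and 0.115% higher), and complex V had the lowest median. The median was -0.04 over the 85 genes, against 0.08 over all features, and 50 genes were below 0, or 58.8%, against 38.4% of all features. At an unadjusted p under 0.05 there were 8 genes lower, or 9.41%, against 4.47% of all features, and 1 higher, or 1.18%, against 7.03%. On every array 10 genes were below 0, or 11.8%, against 6.8% of all features, and 4 above 0, or 4.71%, against 11%.

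Complex V had a median of -0.25 in modifier over Wobbler, with 12 of 15 genes below 0. The medians of complexes I, II, III and IV were -0.04, -0.02, 0.06 and -0.02, and that of the assembly factors was 0.04. Relative to all features on the same array, complex V was at -0.168, -0.249, -0.290 and -0.359 on replicates 1 to 4, below 0 on every array. Complex IV ranged from -0.215 to 0.0705 and overlapped it. The 11 assembly factors were also below all features on every array, between -0.1855 and -0.011. So were the 85 genes together, between -0.162 and -0.041. The low median of complex V was not stable: it was -0.066 with each probe counted on its own. That setting also filters each probe by its own values and counts genes with several probes more than once. Which of these moved the median was not tested.

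Atp5mpl held the smallest p of the 85 genes here, with log2 ratios of -0.389, -0.288, -0.496 and -0.406 in modifier over Wobbler. The 4 arrays differed little, with a fitted ratio of -0.39 ± 0.11 (SE, n = 4) that did not pass (limma, adjusted p = 0.212). Atp5c1 was at -0.162, -0.137, -0.673 and -0.340, all below 0, with a fitted ratio of -0.33 ± 0.12 (SE, n = 4). Atp5md, a small subunit at the dimer interface, was at -0.41, with 3 of 4 arrays below 0. In complex IV Cox7a2 was at -0.44, with -0.331, -0.320, -0.779 and -0.344, all below 0.

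Uqcrh, the hinge protein of complex III, was instead above 0 in modifier over Wobbler. Its log2 ratios were 0.706, 0.489, -0.038 and 0.231, above 0 on 3 of 4 arrays, with a fitted ratio of 0.35 ± 0.12 (SE, n = 4) that did not pass (limma, adjusted p = 0.305). Both modifier comparisons share modifier RNA, so they do not repeat each other independently. Late spermatid markers had a median of -0.64 in modifier over Wobbler, with 15 of 15 below 0 and 5 passing, and Leydig markers one of -0.60, with 1 of 6 passing. Round spermatid and acrosome markers stood at -0.33, with 4 of 5 below 0, and macrophage markers at -0.28. Spermatogonial markers stood at 0.31, meiotic at 0.28, Sertoli at 0.17 and peritubular and vessel at 0.04. In these other lists 0 markers passed. The part of these shifts in the complex V ratios was not tested.

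The remaining comparison set Wobbler testis against wildtype testis. None of the 85 genes passed (limma), where 0.306% of all features did (0.183% lower and 0.122% higher), and 13 had an unadjusted p under 0.05. Of these 9 were higher, or 10.6%, against 7.22% of all features, and 4 lower, or 4.71%, against 8.47%. The median was 0.07 over the 85 genes, against -0.01 over all features, and 31 genes were below 0, or 36.5%, against 50.8% of all features. On every array 3 genes were below 0, or 3.53%, against 11% of all features, and 6 above 0, or 7.06%, against 6.58%. The medians were 0.16 for complex I, 0.17 for complex II, 0.01 for complex III, 0.08 for complex IV, 0.03 for complex V and 0.04 for the assembly factors.

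No complex lay on 1 side of all features on every array of Wobbler over wildtype. Complex I reached from -0.125 to 0.362 and complex V from -0.079 to 0.135. Below 0 on every array were Ndufb2 and Cox8b, with Ndufaf1, a complex I assembly factor, at -0.893, -0.299, -0.326 and -1.44. The fitted ratio of Ndufaf1 was -0.74 ± 0.21 (SE, n = 4) and did not pass (limma, adjusted p = 0.160). Sdhb was above 0 on every array, with 0.531, 1.47, 0.040 and 0.044, and a fitted ratio of 0.52 ± 0.16 (SE, n = 4). Replicates 3 and 4 of Sdhb were near 0 and replicate 2 far above them. Ndufb3, an accessory complex I subunit, was at 0.483, 2.65, 0.945 and 0.299, with replicate 2, the widest array, again the highest. Late spermatid markers had a median of 0.04 here, with 0 of 15 passing, and Leydig markers one of 0.03, with 0 of 6 passing. Round spermatid and acrosome markers stood at -0.35, with 4 of 5 below 0. Meiotic markers stood at 0.23, spermatogonial at -0.10, Sertoli at 0.03, peritubular and vessel at 0.19 and macrophage at 0.14. In these lists 0 markers passed.

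Complex IV holds several of the isoforms by which testis mitochondria differ from those of other tissues. Cox6b2, Cox7b2 and Cox8c are the testis forms of Cox6b1, Cox7b and Cox8a, while Cox6a2, Cox7a1 and Cox8b are heart and skeletal muscle forms. In modifier over wildtype all 3 testis forms were below 0 on every array, none passing. Cox6b2 had -0.223, -0.347, -0.452 and -0.163, with a fitted ratio of -0.30 ± 0.13 (SE, n = 4). Cox8c had -0.131, -0.305, -0.311 and -0.445, with a fitted ratio of -0.30 ± 0.13 (SE, n = 4). Cox7b2 had -0.074, -0.006, -0.508 and -0.211, with a fitted ratio of -0.20 ± 0.12 (SE, n = 4). The spread between arrays was small for these probes, with SDs of 0.129, 0.129 and 0.222.

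The ubiquitous forms were noisier. Cox6b1 had 0.047, -1.59, -1.15 and 0.356 in modifier over wildtype, and its 2 probes gave means of -1.26 and -0.24. Cox7b had 0.166, -0.1045, -1.21 and -1.16, with a fitted ratio of -0.58 ± 0.28 (SE, n = 4). The 2 probes of Cox7b gave means of -1.01 and -0.14, so its ratio rests largely on 1 of them. Cox8a had 0.226, 0.176, -0.303 and 0.097, with a fitted ratio of 0.05. Within an array, Cox8c was lower than Cox8a on all 4 arrays, by -0.35 ± 0.24 (SD, n = 4) log2 units on average, though by only -0.008 on replicate 3. Cox6a2 was higher than Cox6a1 on all 4 arrays, by 0.60 ± 0.42 (SD, n = 4), though by only 0.03 on replicate 4. The second of 2 Cox6a1 probes had no value on replicate 1 and -0.784, -1.54 and 1.06 on replicates 2 to 4. Cox6b2 minus Cox6b1 (0.29 ± 0.83, SD, n = 4) and Cox7b2 minus Cox7b (0.38 ± 0.54, SD, n = 4) had both signs. No test was made of these differences.

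The muscle forms lay at or above 0 in modifier over wildtype, apart from Cox7a1. Cox6a2 was at 0.13 ± 0.13, Cox8b at 0.23 ± 0.28 and Cox7a1 at -0.20 ± 0.49 (SE, n = 4 each). Cox4i1, the ubiquitous form of the largest nuclear subunit, was at -0.07, with 0.0583, 0.00075, -0.397 and 0.0425. In Wobbler over wildtype Cox7b2 was above 0 on every array, with 0.691, 0.407, 0.293 and 0.239 and a fitted ratio of 0.41 ± 0.12 (SE, n = 4), which did not pass (limma, adjusted p = 0.174). In modifier over Wobbler it was at -0.28 ± 0.12 (SE, n = 4), below 0 on 3 of 4 arrays. Atp5g3 was the measured form of the membrane ring subunit of complex V, at -0.26 ± 0.37 (SE, n = 4) in modifier over wildtype.

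**Figure D4:**
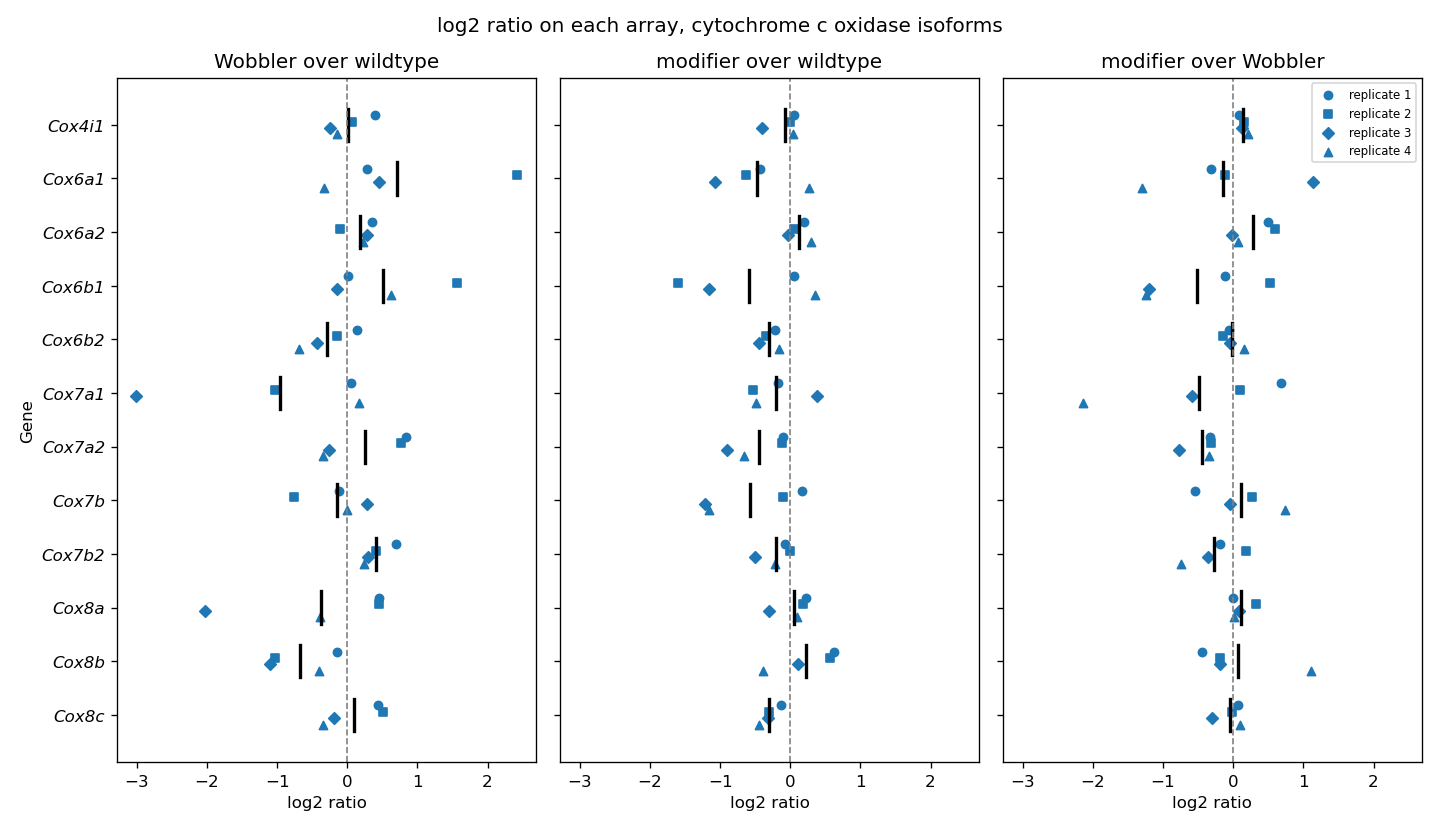
log2 ratio (horizontal axis) of the complex IV isoforms (rows) on each array; symbols are arrays and black bars fitted ratios. The testis forms Cox6b2, Cox7b2 and Cox8c lie below 0 on all 4 arrays of modifier over wildtype, while Cox6b1, Cox7a1 and Cox6a1 scatter widely.

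The promoters of Cox6b2 (chr7:4753045-4753344, minus strand) and Cox6b1 (chr7:30626065-30626364, minus strand) are shown because they belong to a testis form and its ubiquitous counterpart (RefSeq, GRCm38.p6, same window). Capitals mark the ETS motif, which was found in Cox6b1 and not in Cox6b2.
Cox6b2: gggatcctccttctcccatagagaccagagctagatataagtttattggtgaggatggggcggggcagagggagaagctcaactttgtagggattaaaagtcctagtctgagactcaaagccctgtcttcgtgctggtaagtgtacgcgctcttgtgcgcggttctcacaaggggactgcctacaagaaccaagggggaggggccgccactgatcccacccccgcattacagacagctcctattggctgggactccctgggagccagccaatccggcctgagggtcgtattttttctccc
Cox6b1: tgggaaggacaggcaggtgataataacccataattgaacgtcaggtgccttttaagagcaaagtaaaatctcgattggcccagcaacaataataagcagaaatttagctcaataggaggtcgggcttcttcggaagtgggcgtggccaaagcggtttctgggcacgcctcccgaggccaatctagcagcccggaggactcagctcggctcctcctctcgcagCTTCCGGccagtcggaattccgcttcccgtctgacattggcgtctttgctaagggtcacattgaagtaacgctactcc

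Nuclear respiratory factor 1 (NRF1) and ETS-family factors such as GABP are known regulators of respiratory chain genes. Of the 85 tested genes, 70 had promoters in the RefSeq table, 76 promoters in all. The NRF1 core CGCATGCG, which reads the same on both strands, stood in 8 of 76 promoters, or 10.5%, against 1.87% of 32851 promoters of the table. With a G before and a C after it, it stood in 4, or 5.26%, against 0.971%. The ETS motif CCGGAAG stood in 23, or 30.3%, against 8.86%. By genes, the ETS motif was found in 6 of 13 for complex V, 6 of 9 for assembly factors, 3 of 12 for complex IV and 3 of 28 for complex I. The 8 genes with the NRF1 core were Atp5j, Atp5k, Atp5l, Cox6a1, Ndufa8, Ndufaf5, Uqcr11 and Uqcrc1.

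Ndufaf5 (chr2:140170396-140170695, plus strand) and Cox6a1 (chr5:115348909-115349208, minus strand) are shown as promoters with the NRF1 core, in capitals; Cox6a1 also holds the ETS motif, in capitals nearer the start of transcription.
Ndufaf5: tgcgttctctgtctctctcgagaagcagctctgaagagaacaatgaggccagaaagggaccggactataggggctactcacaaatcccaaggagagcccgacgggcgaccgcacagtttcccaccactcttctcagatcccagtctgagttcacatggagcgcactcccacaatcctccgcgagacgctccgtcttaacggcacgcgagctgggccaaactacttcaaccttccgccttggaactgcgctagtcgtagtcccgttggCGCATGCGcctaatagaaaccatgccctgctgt
Cox6a1: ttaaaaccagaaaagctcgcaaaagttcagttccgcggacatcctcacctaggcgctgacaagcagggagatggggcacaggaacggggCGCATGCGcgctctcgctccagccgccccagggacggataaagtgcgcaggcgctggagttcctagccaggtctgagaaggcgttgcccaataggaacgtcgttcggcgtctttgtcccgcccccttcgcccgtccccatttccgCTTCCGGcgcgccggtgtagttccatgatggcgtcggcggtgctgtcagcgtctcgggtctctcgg

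The ratios of genes with and without these motifs overlapped. In modifier over wildtype the median was -0.18 for 22 genes with the ETS motif and -0.20 for 48 genes without it. For the NRF1 core it was -0.28 over 8 genes with it and -0.17 over 62 without it. A match describes letters in this window only.

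The direct ratio of modifier over Wobbler could be set against the ratio obtained through wildtype, since each pair was hybridised. The median over the 85 genes was -0.04 directly and -0.30 indirectly. The difference between both routes, tested in the same fit, passed for 0 of 85 genes, where 0.0272% of all features passed; 6 had an unadjusted p under 0.05, or 7.06%, against 6.95% of all features. The direct ratio was higher than the indirect one for 67 genes, or 78.8%, against 57.1% of all features. The sign was the same by both routes for 57 of 85 genes. For complex V the routes gave -0.25 and -0.30, with the same sign for 14 of 15 genes. For complex IV they gave -0.02 and -0.36, with 10 of 16, and for complex I -0.04 and -0.28, with 21 of 31. For complex III they gave 0.06 and -0.24, with the same sign for only 2 of 8. For complex II they gave -0.02 and -0.26, with 3 of 4, and for the assembly factors 0.04 and -0.10, with 7 of 11. The indirect route contains the Wobbler over wildtype arrays, which include the widest array.

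Of the 85 genes, 24 had more than 1 probe. Their probe means differed by a median of 0.25 log2 units in modifier over wildtype, 0.44 in modifier over Wobbler and 0.25 in Wobbler over wildtype. Probes of a gene had opposite signs for 7, 13 and 8 of these genes in the same order of comparisons. Atp5j2, the f subunit of complex V, differed most, with probe means of -2.11 and 0.12 in modifier over Wobbler and of 2.76 and 0.04 in Wobbler over wildtype, where the outlying probe had values on 3 and 2 arrays. cDNA probes can also bind transcripts of close paralogs and pseudogenes, which these genes have in number, so single values carry that uncertainty.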

How the data were processed

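Testis RNA of 3 genotypes was compared in pairs on 12 two-colour arrays. The deposited values are log2 ratios, 1 for each spot of an array, and how the authors scanned, corrected and normalized them is not stated in the labels or headers. The log2 base was read from the deposited values, which pile up at logarithms of small whole-number ratios. On each array 1 repeated value above 14, found on 22 to 165 spots, was read as a code for a missing denominator and set to missing. The labelling protocol also mentions a pool of control animals as a common partner; the channel labels, which name the paired genotype, were followed. Replicates 3 and 4 of each pair, whose first genotype was in Cy3 per the labels, were multiplied by -1. Probes of a gene were averaged (platform annotation; 14030 of 20355 probes had 1 symbol, 5 had several and 6320 none). Features measured on 3 or 4 arrays in each pair were fitted with limma 3.58.1 (R 4.3.3, lmFit and eBayes) with 1 mean per pair and 1 dye term, and p-values were adjusted by Benjamini-Hochberg over 14729 features per comparison (threshold 0.05). SEs rest on a spread estimated for each feature from the 12 arrays together, and their n counts the arrays of the pair. The fit was tested on simulated data. The genes and lists were chosen with earlier results of these data known. The NRF1 motif was shortened to its core after counts of the longer form, also given, were seen. Single genes were named by rule: called genes, the 5 smallest p per comparison, the lowest and highest of each complex in modifier over wildtype, and isoform families; further genes (Cox5b, Cox6c, Atp5o, Atp5b, Atp5j2) were chosen after their values were seen. Alternatives changed centring, scaling, dye term, filter, probe averaging, replicate block, model, weights, coded and dim spots, direction and the set of arrays. Arrays of the same replicate number correlated at -0.0286 to 0.0653 in their deviations from the pair means, so the numbers were not taken to pair the arrays.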

Additional observations from a re-analysis of the deposited data

Results flagged for a closer look

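Among 110 groups of 4 arrays examined for the named genes and the complex medians, 1 array stood far from the other 3 in 5, where chance flags about 1 in 20. In modifier over wildtype Atp5c1 was at -1.01 on replicate 4 and at -0.543 or above on the others, and Cox4i1 was at -0.397 on replicate 3 and at 0.00075 or above on the others. In modifier over Wobbler Cox7a2 was at -0.779 on replicate 3 and at -0.344 or above on the others. In the same comparison Ndufb2 was at -0.227 on replicate 3, against 0.219 or above, and Cox8b was at 1.11 on replicate 4, against -0.194 or below.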

How the results depend on the processing

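For the main results 548 values were recomputed under 25 alternatives. Of these, 493 kept their size within the spread between arrays (counts within 1.5 times), and 55 did not. The causes were not tested. The count is no measure of stability, since many alternatives could hardly move a value. Leaving out an array of another pair kept the modifier over wildtype median at -0.198. The limit was also wide: complex I in Wobbler over wildtype counted as kept at 0.0038, against 0.16 in the reported fit. The number of genes that passed in modifier over wildtype, 1 in the reported fit, was 9 with arrays scaled to equal spread (10.6%, against 3.34% of all features), 14 with array weights (16.5%, against 4.81%), 2 with each probe tested (2.35%, against 0.915% of all probes tested) and 2 with 2 genotype coefficients for the 12 arrays (2.35%, against 1.52%). It was 0 without the dye term, with no filter beyond 2 values per pair, with the comparison fitted alone and with no array turned. It was 0 to 1 with each array left out, and 1 was kept only without replicate 2 of Wobbler over wildtype. All genes that passed under these settings were lower in modifier testis. In modifier over Wobbler 1 gene (Atp5mpl) passed with 2 genotype coefficients, or 1.18%, against 1.41% of all features. Samples of the same replicate number shared only a number: with the replicate block in place of the dye term 0 genes passed in every comparison, and the call of Atp5c1 had an adjusted p of 0.144.

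The median of the 85 genes in modifier over wildtype was -0.25 with scaled arrays, -0.11 with 2 genotype coefficients, 0.15 with no array turned (all features 0.15) and -0.22 to -0.16 with arrays left out. In modifier over Wobbler it was -0.10 with centred arrays, -0.10 with scaled arrays, -0.093 with 2 genotype coefficients, 0.18 with no array turned (all features 0.12) and -0.10 to 0.0018 with arrays left out. In Wobbler over wildtype it was 0.25 with no array turned (all features 0.17) and -0.034 with 2 genotype coefficients (all features -0.031).

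By complex in modifier over wildtype, 2 genotype coefficients gave -0.086 for I, -0.05 for II, -0.24 for IV and -0.19 for V, and scaled arrays gave -0.39 for IV and -0.35 for V. With no array turned I to V stood at 0.17, 0.18, 0.11, 0.092 and 0.13. Each probe counted gave -0.18 for IV. With arrays left out IV lay between -0.34 and -0.22 and V between -0.37 and -0.23. In modifier over Wobbler complex I was -0.12 with 2 genotype coefficients and -0.13 to 0.0018 with arrays left out, and complex V was -0.066 with each probe counted. With no array turned I, II, III and V stood at 0.14, 0.31, 0.27 and 0.18 there, and III, IV and V at 0.27, 0.24 and 0.19 in Wobbler over wildtype. The ratio of Atp5c1 in modifier over wildtype changed sign, to 0.13, with no array turned. Counting Ndufa4 with complex IV was not run, since no tested probe carried that symbol. The number of arrays and the unknown intensities limit the precision.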
